A study of Mus musculus with 240 samples.

Results

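Oligodendrocyte precursor cells (OPCs) of the mouse brain were compared between 10-cell libraries in which cell-cycle genes were most and least represented. The libraries were chosen by a score, the mean log2(CPM + 1) of 8 genes, Mki67, Top2a, Cdk1, Ccnb1, Ccna2, Birc5, Tpx2 and Rrm2, where CPM is the count per 1000000 counts of mouse genes. At each of 2 times the 14 libraries with the highest score and the 14 with the lowest were taken out of 56, which gives 56 of the 112 10-cell libraries and of the 240 libraries in the series. Because the score chose the libraries, its genes were left out of every test, and their values are given as a description. The libraries are called high-score and low-score here, since no library was sorted or stained for division.

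All of these libraries, the controls included, carry the genotype Trp53-/- Nf1-/-, and both times, 12 and 90 dpi, count days from the start of tamoxifen. The promoter that drives recombination is not given in the sources used here. Cells were captured by laser from 8 µm brain cryosections, and polyA RNA was reverse transcribed, amplified by PCR and made into Nextera XT libraries with ERCC spike-ins. Another 80 libraries, 40 at each time, are pool-and-split controls of the same genotype, and they received the same score rule with the 10 highest against the 10 lowest. Each time has 4 sets, named by sex and by the number that ends the label (female 1, female 2, male 1, male 2), of 14 10-cell libraries each. What that number stands for is not stated, nor do the labels tie libraries to animals. Libraries may therefore share an animal, and the p-values below, which run over libraries, may be too small.

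A cell that divides copies its genome in S phase and separates the copies in mitosis. E2F factors switch on the replication genes first. Mitotic genes are held off by the DREAM complex in resting cells and switched on later by the complexes that replace it, which contain B-MYB and FOXM1. Both act through a short element called the CHR, which often stands beside CCAAT boxes bound by NF-Y. Mki67 coats mitotic chromosomes, Top2a disentangles sister DNA, Cdk1 with its partners Ccnb1 and Ccna2 drives entry into mitosis, Birc5 and Tpx2 act on the centromere and the spindle, and Rrm2 makes deoxyribonucleotides. OPCs are the main dividing cell of the adult brain outside the stem cell niches.

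The sequences before the gene start of Mki67, Top2a and Cdk1 are shown because these are the score genes in which a CHR and a CCAAT box were both found, and because they reached 71.3, 238 and 122 CPM in high-score libraries at 12 dpi. They are the 250 bases before the RefSeq gene start in GRCm38.p6, all on the minus strand, at chr7:135716380-135716629, chr11:99024190-99024439 and chr10:69352913-69353162. Capitals mark the CHR (TTTGAA or TTCGAA) and the CCAAT box, each on either strand, so that TTCAAA and ATTGG are the same elements read from the other strand.
Mki67: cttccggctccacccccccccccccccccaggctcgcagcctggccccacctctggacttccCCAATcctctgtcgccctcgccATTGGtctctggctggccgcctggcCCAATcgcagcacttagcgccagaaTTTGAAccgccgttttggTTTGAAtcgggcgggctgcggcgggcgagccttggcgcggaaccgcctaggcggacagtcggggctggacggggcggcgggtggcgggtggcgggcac
Top2a: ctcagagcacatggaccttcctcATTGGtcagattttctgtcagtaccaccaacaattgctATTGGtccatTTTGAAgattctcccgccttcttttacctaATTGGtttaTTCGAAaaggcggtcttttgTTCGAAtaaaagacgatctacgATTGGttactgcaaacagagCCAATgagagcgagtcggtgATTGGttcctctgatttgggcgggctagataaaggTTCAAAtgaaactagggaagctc
Cdk1: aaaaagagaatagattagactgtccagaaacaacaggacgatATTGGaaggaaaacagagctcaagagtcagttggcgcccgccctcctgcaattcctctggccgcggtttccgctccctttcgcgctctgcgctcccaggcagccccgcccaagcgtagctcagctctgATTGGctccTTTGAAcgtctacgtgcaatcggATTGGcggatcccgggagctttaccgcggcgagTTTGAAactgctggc
Mki67 holds its CHR letters at 116 and 98 bases before the gene start, Top2a at 179, 140, 120 and 23, and Cdk1 at 71 and 15. Of the 8 score genes, 6 matched a window in the RefSeq table, which runs from 250 bases before to 50 after the start. CHR letters stood in 3 of these 6 windows, against 19.2% of 32851 windows of the same length over all genes. The CCAAT box stood in 5 of 6, against 37.4%, and both stood together in 3 of 6, against 7.52%. A search for E2F letters (TTTGGCGC, TTTCGCGC, TTTCCCGC or TTTGCCGC, either strand) found 1 window, that of Cdk1 with TTTCGCGC at 131 bases before the start, against 2.26% of all windows. These matches describe letters, not bound sites.

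The score separated the libraries mainly by a few sparsely detected genes. At 12 dpi the high-score libraries ran from 0.517 to 1.67 with a median of 0.733, and the low-score libraries from 0 to 0.0406, with 7 of 14 at 0. At 90 dpi the high-score libraries ran from 0.663 to 2.98 with a median of 1.16, and the low-score libraries from 0 to 0.174, with 4 of 14 at 0. The libraries just outside the limits stood at 0.439 and 0.0430 at 12 dpi and at 0.619 and 0.177 at 90 dpi, so the score shows no step at either limit. Pool-and-split libraries, which hold aliquots of a pool rather than separate captures, reached a score of 3.01 at 12 dpi and 1.32 at 90 dpi by the same rule.

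**Figure D1:**
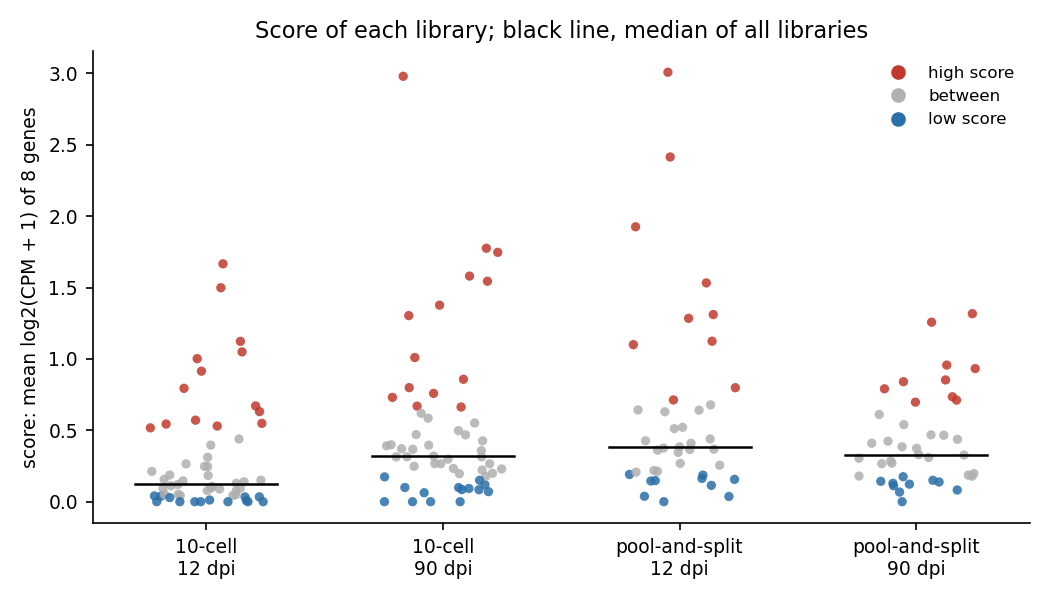
Score of each 10-cell and pool-and-split library (mean log2(CPM + 1) of 8 genes) by time, with high-score, middle and low-score libraries marked. High-score 10-cell libraries begin at 0.517 at 12 dpi and at 0.663 at 90 dpi, and the highest pool-and-split library at 12 dpi, at 3.01, lies above every 10-cell library.

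Within the high-score libraries the 8 genes were seldom detected together. A high-score library had 1 to 6 of them above 0, with a median of 3 at 12 dpi and 4 at 90 dpi, and at most 2 and 3 of them at 10 CPM or more. At least 4 of the 8 were detected in 5 of 14 high-score libraries at 12 dpi and 10 of 14 at 90 dpi. Over all libraries that share was 5 of 56 and 17 of 56 for 10-cell samples and 12 of 40 and 6 of 40 for pool-and-split samples. In 4 high-score libraries at 12 dpi and 2 at 90 dpi, a single gene gave over 80% of the summed score. The values thus support the cycling label only weakly, above all at 12 dpi.

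Mki67 was the score gene that set the 90 dpi libraries apart most widely. It was detected in 10 of 14 high-score libraries, with a median of 2.15 and a highest value of 141 CPM, and in 0 of 14 low-score libraries. At 12 dpi it was detected in 6 of 14, up to 71.3 CPM, against 1 of 14, with 1 count. Tpx2 was the most often detected at 12 dpi, in 13 of 14 high-score libraries up to 24.5 CPM, against 1 of 14. Cdk1 and Rrm2 were rare at both times, Cdk1 in 2 and then 3 high-score libraries and Rrm2 in 2 and then 3. Birc5 was detected in 78 of the 112 10-cell libraries, but 77 of these expected counts were not whole numbers (within 0.001) and their median was 3.44, so shared reads enter its value. Counts were also not whole in 31 of 46 libraries with Top2a, 29 of 40 with Ccna2, 17 of 50 with Tpx2 and 2 of 20 with Mki67.

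A few libraries carried the clearest set of dividing-cell transcripts. The 12 dpi library with the highest score, library 63 of set male 2, held Cdk1 at 122 CPM and Mki67 at 67.5 CPM, while Top2a, Ccnb1, Ccna2, Birc5 and Rrm2 were at 0. It also held 29 of 60 mitosis genes outside the score, 14 of them at 10 CPM or more. Among these were Cdc20, which activates the anaphase-promoting complex, at 410 CPM, Ube2c, the ubiquitin-conjugating enzyme of that complex, at 389 CPM, and the kinetochore gene Spc25 at 95.1 CPM. Spc25, the checkpoint kinase Ttk (23.9 CPM) and Melk (11.0 CPM) were at 0 in the 13 other high-score and all 14 low-score libraries of that time. Other members of this set went higher in a low-score library. They were Foxm1 (323 CPM against 33.7), Bub3 (268 against 41.4), Cdc25b (125 against 28.5) and Spc24 (25.6 against 12.7).

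The highest library at 90 dpi, library 72 of set female 2, held Mki67 at 141, Birc5 at 75.6 and Top2a at 58.0 CPM. It had 43 of the 60 mitosis genes above 0 and 16 at 10 CPM or more. They included the phosphatase Cdc25b at 256 CPM, the spindle gene Tacc3 at 115 CPM, Cdca8 of the chromosomal passenger complex at 94.5 CPM and the condensin subunit Ncapg at 89.8 CPM. In low-score libraries of that time Ncapg was at 0, Tacc3 reached 1.21 CPM and Cdc25b 104 CPM. Cdca8 went higher in a low-score library, at 139 CPM, as did Pttg1 (525 against 49.5) and Arhgap11a (222 against 18.6). So did Bub3 (194 against 33.5), Cdca3 (148 against 70.4), Hmmr (57.0 against 47.0) and Smc2 (55.4 against 11.8). Among the 3 highest pool-and-split libraries of each time, at most 9 mitosis genes reached 10 CPM. The pool-and-split library with the score of 3.01 held 5. The 10-cell libraries ranked 2 and 3 by score held no more than that limit of 9, with 7 and 3 at 12 dpi and 8 and 9 at 90 dpi. Middle 10-cell libraries held up to 6 at 12 dpi and up to 12 at 90 dpi.

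High-score libraries had more genes detected at 12 dpi, at totals that differed by less than the spread between libraries. In units of 1000000 counts, library totals ran from 1.64 to 5.77 in the 28 libraries at 12 dpi and from 2.81 to 4.69 at 90 dpi. The difference in mean log2 total count was 0.02 at 12 dpi (adjusted p = 0.8202) and 0.08 at 90 dpi (adjusted p = 0.7607) by permutation of libraries within sets (two-sided, 100000 resamples, 6 tests adjusted together). Each permutation p measures the distance from the mean permuted difference. That mean need not be 0, as sets hold unequal numbers of high-score and low-score libraries. At 12 dpi a high-score library had from 3813 to 12618 genes above 0 (median 9572) and a low-score library from 3324 to 11041 (median 5954), so the groups overlapped. The means were 9084 ± 2694 and 6549 ± 2409 genes (SD, n = 14 each), a difference of 2535 genes (permutation p = 0.00324, adjusted p = 0.01944), higher in 4 of 4 sets. At an equal depth of 1639364 counts per library the means were 8207 and 5752 genes. With the score itself taken from those thinned counts the difference was 1967 genes and did not pass (adjusted p = 0.05406), nor did it with 10 against 10 libraries (3176 genes, adjusted p = 0.05376). Without set male 2 the difference was 1994 genes and did not pass (adjusted p = 0.2733), nor did it without female 1 (adjusted p = 0.063) or male 1 (adjusted p = 0.07626).

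At 90 dpi the corresponding means were 10131 ± 1804 and 9095 ± 1861 genes (SD, n = 14 each), a difference of 1036 genes that did not pass the permutation test (adjusted p = 0.7295). It was positive in set female 2 (5408 genes, against 1 low-score library) and male 1 (828 genes) and negative in female 1 (-944 genes) and male 2 (-691 genes). The sets held unequal numbers of high-score and low-score libraries (4 and 1 in female 2, 3 and 6 in male 1). Differences between sets therefore enter the 1036 genes. The amount of mouse RNA against the spike-ins, as log2 mouse counts per ERCC count, was higher by 0.47 at 12 dpi and 0.69 at 90 dpi, and neither passed (adjusted p = 0.7295 for both). In pool-and-split libraries the means were 8632 and 8306 genes at 12 dpi and 9168 and 8229 at 90 dpi. Genes detected thus moved with the score at 12 dpi, and with genes detected as a covariate 0 of the 7 calls below remained. The 14 low-score libraries of 12 dpi had 0 or 1 of the 8 score genes above 0. A choice by this score therefore also favours libraries with few genes detected, and the permutation test does not separate the 2.

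**Figure D2:**
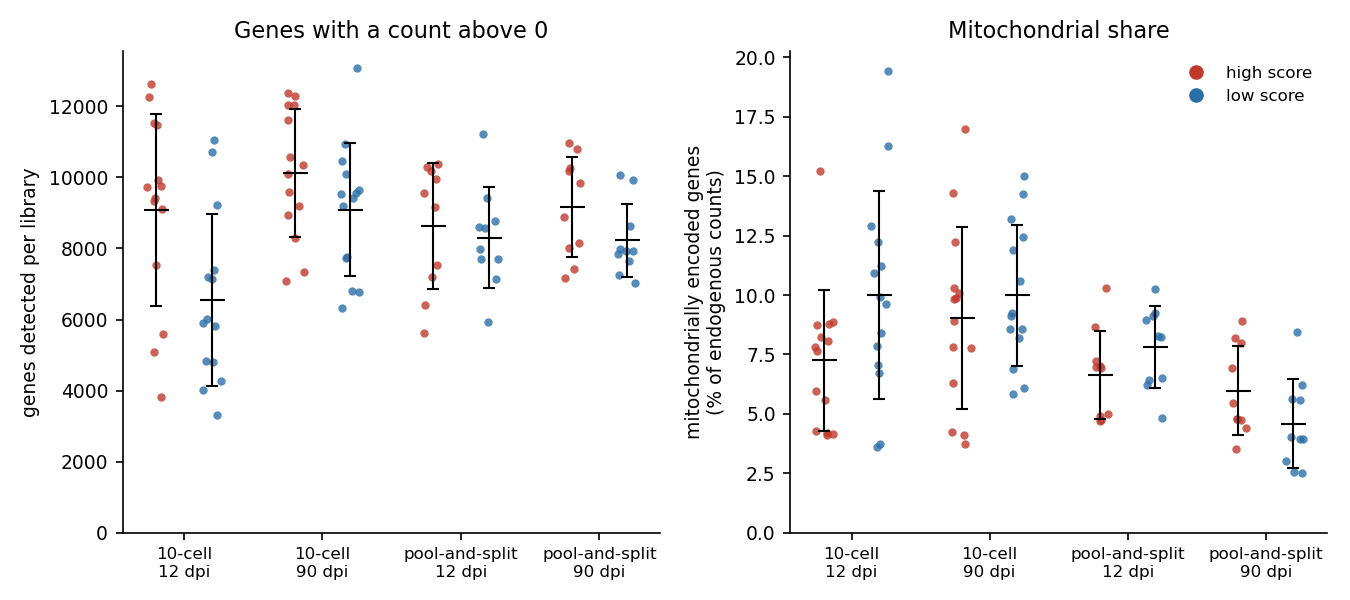
Genes detected (count above 0) and percent of counts from mitochondrially encoded genes in each high-score and low-score 10-cell library, by time, with group means. At 12 dpi the high-score mean is 9084 genes against 6549, and the mitochondrial share 7.27% against 10.0%.

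Few single genes differed at 12 dpi. None of those called belongs to the cell-cycle lists, which had few tested members (8 of 60 mitosis and 20 of 51 replication genes). At the share called over all genes, 0.0824%, the lack of calls among so few genes says nothing about them. Of 8499 genes tested with edgeR's quasi-likelihood test with the set as a block, 7 were called at a Benjamini-Hochberg adjusted p under 0.05 (0.0824% of genes), 5 higher and 2 lower in high-score libraries. They were Nkiras2, Cdc73, Ctu2, Nr4a3 and Slc4a1ap among the higher genes, and mt-Co2 and Gm28437 among the lower. Cdc73, Ctu2, Nr4a3 and Slc4a1ap had low mean levels and were named after their values were seen. Over all genes tested the median log2 difference was 0.68 and 65.5% of genes were higher in high-score libraries, which moved with the number of genes detected. At an unadjusted p under 0.05 there were 734 higher and 97 lower genes, and DESeq2 called 430 higher and 73 lower. Without set male 2 edgeR called 0 genes, and 1 without female 1 or without male 1. Scaled by total counts, the all-gene median was 1.14 and 19 genes were called higher and 1 lower, and with RLE size factors 0.87, with 10 and 1. Spread between libraries was wide, with a common biological coefficient of variation of 2.18.

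The 5 higher genes were at 0 in at least 13 of 14 low-score libraries and reached high values in some high-score libraries, but they were also high in some libraries between the ends of the score. In those 28 middle libraries Nkiras2 was detected in 14 and reached 867 CPM, in a library with a score of 0.0488. Nr4a3 was detected in 14, up to 396 CPM in a library with a score of 0.0774, and Ctu2 in 11, up to 99.7 CPM. Cdc73 was detected in 17, up to 56.8 CPM, and Slc4a1ap in 12, up to 78.3 CPM. The highest values of Nkiras2, Nr4a3 and Ctu2 thus lay in middle libraries and not in high-score ones. Cdc73, a subunit of the PAF1 transcription elongation complex (chr1:143598800-143702893), ran from 0 to 99.5 CPM (median 5.49) in high-score libraries and was at 0 in all 14 low-score libraries. It was detected in 11 of 14 high-score libraries. Over the group it was at least 409-fold higher than a floor of 3 counts over all low-score libraries, and at least 277-fold without its highest library (adjusted p = 0.0256, edgeR).

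Nkiras2, a Ras-like protein that inhibits NF-κB (chr11:100619244-100627607), ran from 0 to 654 CPM (median 3.00) in high-score libraries, 9 of which were above 0. A single low-score library had it, with 6 counts. Its summed CPM was 715-fold higher (counting interval 328 to 1949), its log2 difference was 9.56 ± 1.89 (SE, adjusted p = 0.0256), and 73.1% of its counts in the high-score group came from 1 library. Ctu2, which acts in the thiolation of transfer RNA (chr8:122476143-122484138), ran from 0 to 52.4 CPM (median 2.82), with 8 of 14 high-score libraries above 0 against 1 of 14 with 3 counts. Its summed CPM was 282-fold higher (counting interval 96.3 to 1372, adjusted p = 0.0256).

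Nr4a3, an orphan nuclear receptor of the immediate early class (chr4:48045153-48086447), ran from 0 to 191 CPM (median 0.647) in high-score libraries and was at 0 in all 14 low-score libraries. It was detected in 8 of 14 high-score libraries and was at least 562-fold higher over the group, or 279-fold without its highest library (adjusted p = 0.0353). Slc4a1ap, which encodes kanadaptin (chr5:31526995-31556932), ran from 0 to 130.0 CPM (median 0.357), also in 8 of 14 against 0 of 14. It was at least 382-fold higher, or 176-fold without its highest library (adjusted p = 0.0353). Both were at 0 in the high-score libraries of set female 2, so their difference was seen in 3 of 4 sets.

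The 2 genes that were lower in the high-score libraries of 12 dpi both carry mitochondrial sequence. Gm28437 (chr1:24613189-24613971), annotated as a pseudogene, ran from 17279 to 86489 CPM (median 34228) in high-score and 26140 to 129980 CPM (median 55751) in low-score libraries. The ranges overlapped and the log2 difference was -1.60 ± 0.27 (SE, adjusted p = 0.00387), lower in 4 of 4 sets. All 783 bases of its transcript are identical to mt-Co3, a subunit of cytochrome c oxidase, so reads of the copy and of the mitochondrial gene cannot be told apart. The values listed for mt-Co3 itself differed by -1.70 (adjusted p = 0.056). mt-Co2, another subunit (mitochondrial genome, 7013 to 7696), ran from 9145 to 30968 CPM (median 16373) against 6586 to 55968 (median 22237), a log2 difference of -1.31 ± 0.27 (adjusted p = 0.0309), lower in 4 of 4 sets. It has its own copy Gm28661, identical over 681 bases.

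Of the 13 mitochondrially encoded genes, 12 were tested at 12 dpi, all 12 were lower, 9 at an unadjusted p under 0.05, and 1 was called. Their median log2 difference was -1.06, beside 0.68 for all genes. This list was made after values were seen. Its share of a library's counts was 7.27% ± 2.97 in high-score and 10.0% ± 4.39 in low-score libraries (SD, n = 14 each), lower in 4 of 4 sets by 0.119 to 3.59 percentage points. These shares leave out reads assigned to copies such as Gm28437. Summed over each group, that copy alone held 36258 CPM in high-score and 62222 CPM in low-score libraries. Scaled by total counts the list's median was -0.42, with genes detected as a covariate it was -0.24, and without libraries under 5000 genes detected it was -0.45. At 90 dpi the share was 9.03% and 9.99%, the median was 0.04, and 8 of 12 genes were higher. Other lists detected in nearly every library also had medians below 0 at 12 dpi. Oxidative phosphorylation genes were at -0.59 (4 of 17 higher) and cytosolic ribosome genes at -0.49 (7 of 24 higher). Scaled by total counts these medians were 0.03 and 0.09.

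**Figure D3:**
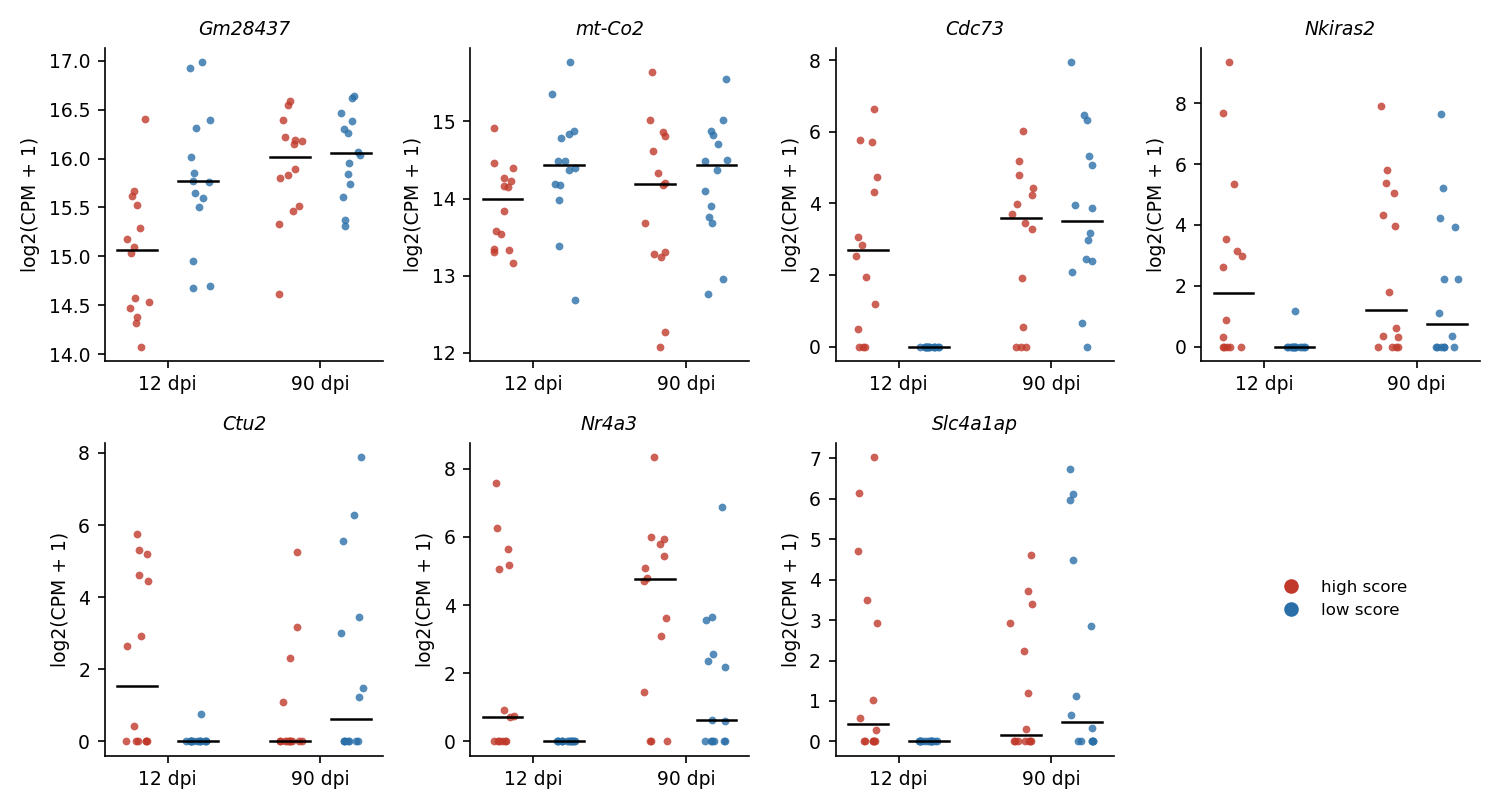
CPM on a log scale in each high-score and low-score 10-cell library for the 7 genes called at 12 dpi, at both times. The 5 higher genes are at 0 in at least 13 of 14 low-score libraries at 12 dpi, and the 2 mitochondrial sequences overlap between the groups.

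Mitosis genes outside the score were detected in more of the high-score libraries, but no single one was called. Over all genes tested, 0.0824% were called at 12 dpi and 0% at 90 dpi. At 12 dpi a high-score library had 3 to 29 of the 60 listed genes above 0 (median 21) and a low-score library 2 to 22 (median 10). At 90 dpi the numbers were 11 to 43 (median 28.5) and 6 to 26 (median 17). The groups overlapped at both times, and the excess at 90 dpi stood beside a smaller difference in genes detected overall. Summed over libraries, mitosis genes were detected 1.77 times as often in high-score as in low-score libraries at 12 dpi, beside 1.39 for all genes, and 1.56 times as often at 90 dpi, beside 1.11. In pool-and-split libraries the ratios were 1.22 and 1.11, beside 1.04 and 1.11 for all genes. In 10-cell libraries other lists also lay above the all-gene ratio at 12 dpi. These included G1 cyclins, kinases, inhibitors and E2F genes at 1.77 (1.02 at 90 dpi) and MAPK output genes at 1.52 (1.15). Immediate early and stress genes were at 1.49 (1.11) and OPC genes at 1.43 (1.22). Others lay below it at 12 dpi, such as astrocyte genes at 1.07 and microglia genes at 0.93.

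By gene, 43 of the 60 were detected in more high-score than low-score libraries at 12 dpi and 6 in fewer, and at 90 dpi 45 and 5. Over all 34615 genes these numbers were 13389 and 2471 at 12 dpi and 10035 and 4608 at 90 dpi. Detection was equal in both groups for 18755 and 19972 of all genes, but for 11 and 10 of the 60. Shares of all genes given next include these genes, so they are a low base for the list. Of genes detected in more high-score libraries, 2549 of 13389 were so by at least 5 libraries at 12 dpi, beside 7 of 43 listed. At 90 dpi these were 743 of 10035, beside 11 of 45. At 12 dpi, 7 of the 60 (11.7%) were detected in at least 5 more high-score than low-score libraries and 0 in at least 5 fewer, beside 7.36% and 0.0809% of all genes. At 90 dpi these were 11 (18.3%) and 0, beside 2.15% and 0.228% of all genes. In pool-and-split libraries, whose groups of 10 make a step of 5 harder to reach, they were 1 and 0 at 12 dpi and 1 and 1 at 90 dpi. Named after their values were seen, those at 90 dpi included Ube2c in 11 of 14 against 3 of 14, up to 20.6 CPM against 2.91. The midzone bundling gene Prc1 was detected in 8 against 1, the condensin gene Ncapg and the mitotic kinase Pbk each in 7 against 0, and Cdc20 in 6 against 0. The kinase Aurkb and the spindle gene Ckap2l were each detected in 5 against 0.

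**Figure D4:**
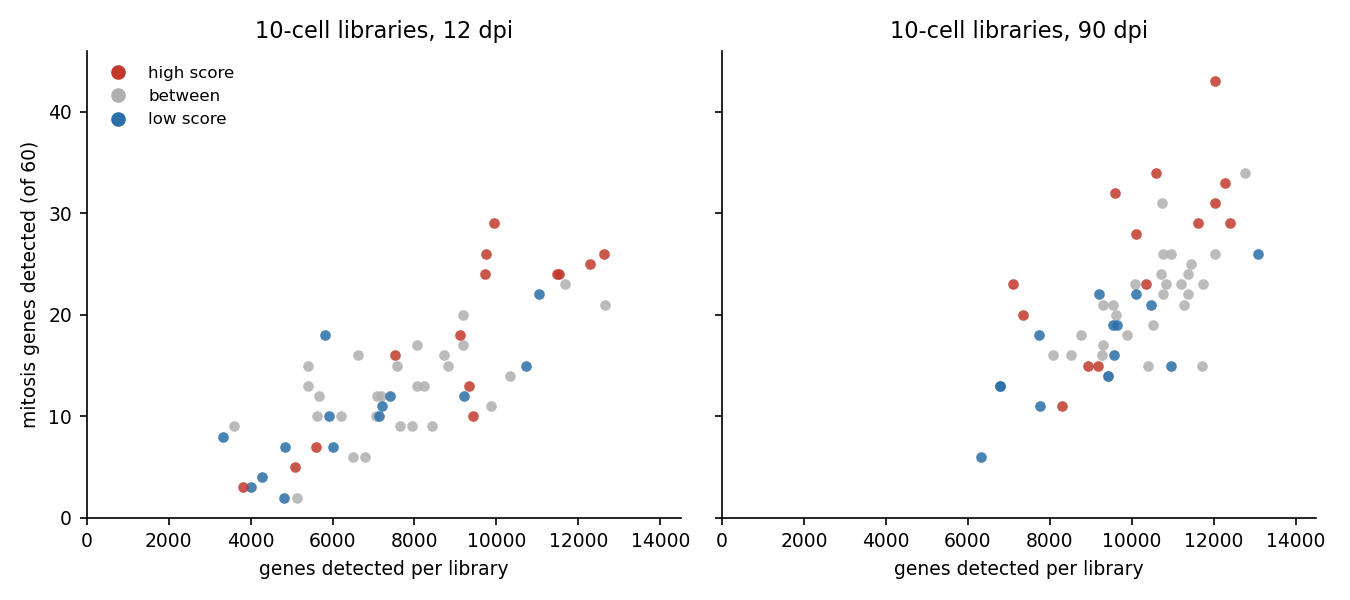
Number of 60 mitosis genes (score genes left out) with a count above 0 in each 10-cell library, against all genes detected in that library, by time. High-score, middle and low-score libraries are marked. The median is 21 against 10 at 12 dpi and 28.5 against 17 at 90 dpi in high-score and low-score 10-cell libraries, and the ranges overlap.

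Most mitosis genes were too sparse for the test of levels. At 12 dpi 8 of 60 had a count of at least 10 in 14 libraries, and 6 of these were higher, with a median log2 difference of 1.01 beside 0.68 for all genes. Racgap1, part of the centralspindlin complex of cell division, ran from 0 to 394 CPM (median 2.68) against 0 to 12.8 CPM (median 0.0132). It differed by 4.93 ± 1.52 (SE) without passing (adjusted p = 0.144). The condensin gene Ncapd2 differed by 4.91 ± 2.07 (adjusted p = 0.387). At 90 dpi 12 were tested, 8 were higher and the median was 0.75 beside 0.01. Smc2, the core of condensin, was detected in 9 of 14 against 2 of 14 there and differed by 5.02 ± 1.91 (adjusted p = 0.637).

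DNA replication genes were detected 1.63 times as often in high-score as in low-score libraries at 12 dpi, beside 1.39 for all genes, and 1.23 times as often at 90 dpi, beside 1.11. In pool-and-split libraries the ratios were 1.02 and 1.17. At 12 dpi a high-score library had 7 to 39 of 51 replication genes above 0 (median 28.5) and a low-score library 3 to 31 (median 17.5), and at 90 dpi 17 to 41 (median 31.5) and 10 to 37 (median 23). Of the 51, 20 were tested at 12 dpi, 14 were higher and 0 were called, with a median log2 difference of 0.86 beside 0.68. The ligase Lig1, which joins Okazaki fragments, was detected in 10 of 14 libraries up to 417 CPM against 3 of 14 up to 11.2 CPM and differed by 5.62 ± 1.64 (adjusted p = 0.114). The clamp loader subunit Rfc3 differed by 6.08 ± 2.16 (adjusted p = 0.257) and the origin subunit Orc6 by 5.35 ± 1.80 (adjusted p = 0.210). With genes detected as a covariate the list's median at 12 dpi was 0.00 beside -0.21 for all genes.

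At 90 dpi 28 replication genes were tested, 15 were higher and 0 were called, with a median of 0.41 beside 0.01. Over 6 alternatives this median ran from 0.03 to 0.85. It was lowest with genes detected as a covariate (14 of 28 higher), beside -0.02 for all genes. The helicase subunit Mcm5 was detected in 12 of 14 libraries, up to 159 CPM, against 9 of 14, up to 1.43 CPM, and differed by 4.26 ± 1.32 (SE, adjusted p = 0.400). It was higher in 4 of 4 sets, as were the leading-strand polymerase gene Pole (3.07 ± 1.17, adjusted p = 0.637) and Tyms, which makes thymidylate (2.36 ± 1.08, adjusted p = 0.729). None of these adjusted p-values, from edgeR, passed.

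The lists around these 2 showed no called gene either, beside 0.0824% of all genes at 12 dpi and 0% at 90 dpi. Of 21 genes of replication stress and homologous repair, 5 were tested at 12 dpi and 4 were higher, with a median of 0.84. The helicase Blm ran from 0 to 41.3 CPM (median 1.54) in high-score and 0 to 0.734 CPM (median 0) in low-score libraries and differed by 4.63 ± 1.19 (adjusted p = 0.0675). Its difference reversed to -1.40 with the continuous score and to -0.01 with the 28 highest against the 28 lowest libraries. G1 cyclins, kinases, inhibitors and E2F genes had medians of 0.06 at 12 dpi (6 of 24 tested, 3 higher) and 0.04 at 90 dpi (9 tested, 5 higher), which turned negative in 3 of 7 and 6 of 6 alternatives. Among chromatin and tubulin genes of dividing cells, 15 of 20 tested were higher at 12 dpi (median 0.81) and 13 of 21 at 90 dpi (median 0.19). The maintenance methyltransferase Dnmt1 differed by 4.56 ± 1.499 at 12 dpi (adjusted p = 0.194), and at 90 dpi the histone gene H2afx by 8.36 ± 2.58 (adjusted p = 0.400), with 6 of 14 libraries above 0 against 2 of 14.

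OPC genes were present in both groups at both times. The proteoglycan gene Cspg4 was above 0 in 14 of 14 libraries of each group at both times, and Olig1 in 13 and 13 at 12 dpi and 14 and 14 at 90 dpi. The growth factor receptor gene Pdgfra was detected in 11 of 14 high-score against 7 of 14 low-score libraries at 12 dpi and in 14 against 9 at 90 dpi. Of 17 OPC genes, 13 were tested at 12 dpi and 9 were higher (median 0.79), and 16 were tested at 90 dpi and 11 were higher (median 0.58). With the 28 highest against the 28 lowest libraries the OPC medians were -0.17 (4 of 13 higher) and -0.21 (7 of 16 higher), and with the score from thinned counts the 90 dpi median was -0.08. The transcription factor Olig2 ran from 0 to 499.7 CPM (median 12.5) against 0 to 109.8 CPM (median 0.108) at 12 dpi and differed by 4.09 ± 1.48 (adjusted p = 0.265). The matrix gene Matn4 differed by 7.25 ± 1.89 at 12 dpi (adjusted p = 0.0729), and the secreted factor gene C1ql1 by 4.22 ± 1.65 at 90 dpi (adjusted p = 0.659). In libraries of 10 cells, fewer cells of a type and less RNA per cell cannot be told apart.

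Markers of other brain cells lay mostly on 1 side at 12 dpi, with 0 called genes. All 9 microglia genes tested of 14 were lower in high-score libraries (median -3.17), and 8 of 9 endothelial genes tested of 11 were lower (median -2.34), beside 0.68 for all genes. Ctss, a microglial protease, ran from 0 to 11.7 CPM (median 0.124) against 0 to 1405 CPM (median 9.92) and differed by -6.15 ± 1.92 (adjusted p = 0.156). The vascular gene Ly6c1 differed by -2.98 ± 1.29 (adjusted p = 0.401) and Flt1 by -4.56 ± 1.93 (adjusted p = 0.387). When the score was taken from counts thinned to equal depth, both medians changed sign, to 0.36 for microglia and 0.23 for endothelial genes.

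The summed level of the 14 microglia genes ran from 0.25 to 618 CPM (median 126) in high-score and 1.22 to 3487 CPM (median 129.5) in low-score libraries at 12 dpi. Endothelial genes summed to 0.49 to 1672 CPM (median 301) and 0 to 6358 CPM (median 1617). Pericyte and fibroblast genes, with 2 of 9 tested higher (median -0.87, but 0.42 without libraries under 5000 genes detected), and astrocyte genes, with 2 of 12 higher (median -1.06), lay on the same side. Neuron genes lay on the other, with 12 of 13 higher (median 1.17), and summed to 2975 to 13065 CPM (median 7438) against 426 to 10555 CPM (median 4345). Of all the markers in these 5 lists, 1, the smooth muscle gene Tagln, was at 0 in all 28 libraries at 12 dpi. The part of these markers in the differences at 12 dpi was not tested.

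At 90 dpi the same lists gave other values. Of 13 microglia genes tested 10 were higher (median 1.26), with the microglial membrane gene Tmem119 detected in 10 of 14 against 4 of 14 and a difference of 6.96 ± 2.05 (adjusted p = 0.351). Endothelial genes had a median of -0.03 (5 of 10 higher) and neuron genes -0.66 (3 of 13 higher). Pericyte and fibroblast genes again lay below 0, with 2 of 10 higher and a median of -0.88. The microglia median was -0.16 with the 28 highest against the 28 lowest libraries (5 of 13 higher), -0.02 with the score from thinned counts (6 of 13 higher) and 0.14 without libraries resting on 1 gene. Microglia genes summed to 88.4 to 4167 CPM (median 728) in high-score and 82.2 to 3496 CPM (median 685) in low-score libraries, so the ranges overlapped nearly in full.

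**Figure D5:**
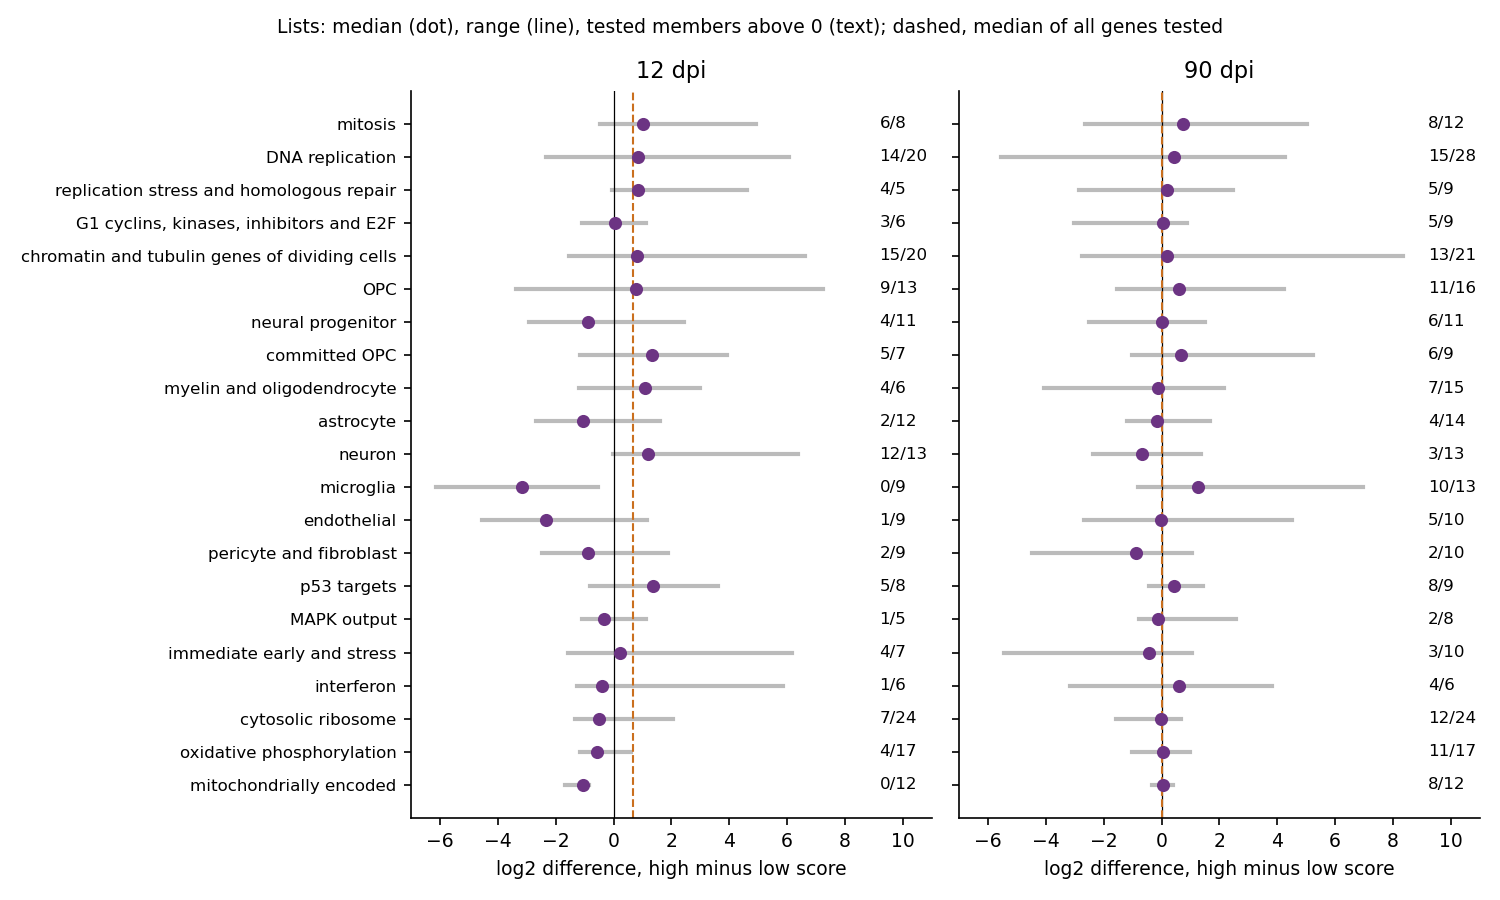
Log2 differences, high-score minus low-score, of the tested members of each gene list at 12 and 90 dpi, with the list's median and the median of all genes tested. At 12 dpi the microglia and endothelial medians are -3.17 and -2.34 and the mitosis median is 1.01, beside 0.68 for all genes, and at 90 dpi the all-gene median is 0.01.

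The remaining lists held no called gene at either time, and several of their medians changed sign with the setting. Neural progenitor genes had medians of -0.87 at 12 dpi (4 of 11 higher) and 0.03 at 90 dpi (6 of 11 higher), which turned in 2 of 7 and 4 of 6 alternatives. Oxidative phosphorylation genes had medians of -0.59 (4 of 17 higher) and 0.04 (11 of 17 higher), which turned in 1 of 7 and 1 of 6. Immediate early and stress genes had a median of 0.22 at 12 dpi, with Nr4a1 at 4.71 ± 1.42 (adjusted p = 0.132) and Fos at 6.18 ± 2.22 (adjusted p = 0.259), and -0.43 at 90 dpi. Targets of p53, the product of the deleted Trp53, had medians of 1.37 (5 of 8 higher) and 0.44 (8 of 9 higher). Interferon genes had medians of -0.39 and 0.58, MAPK output genes -0.35 and -0.12, and cytosolic ribosome genes -0.49 and -0.01. Myelin genes had medians of 1.09 (4 of 6 higher) and -0.12 (7 of 15 higher), and genes of committed OPCs 1.31 (5 of 7 higher) and 0.66 (6 of 9 higher). Of these lists, p53 targets turned in 1 of 7 alternatives at 12 dpi, interferon genes in 1 of 7 and 1 of 6, MAPK output genes in 2 of 7 and 2 of 6, immediate early genes in 2 of 7 at 12 dpi, myelin genes in 2 of 7 and 3 of 6, ribosome genes in 1 of 7 and 1 of 6, and genes of committed OPCs in 0.

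Of the deleted genes, Nf1 was detected in 9 of 14 high-score and 4 of 14 low-score libraries at 12 dpi and was too sparse to test. At 90 dpi it was detected in 11 of 14 and 6 of 14, up to 98.7 and 4.36 CPM, and differed by 3.80 ± 1.75 (SE, adjusted p = 0.741). Trp53 differed by -1.09 at 90 dpi (adjusted p = 0.97). Transcripts outside the deleted part can still be counted, so these values do not check the genotype.

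At 90 dpi no gene was called with edgeR's quasi-likelihood test among 10101 tested (0%). The smallest adjusted p was 0.0733, 647 genes had an unadjusted p under 0.05, 359 higher and 288 lower, and DESeq2 called 295. The median log2 difference was 0.01 and 50.5% of genes were higher. The 7 genes called at 12 dpi did not pass here. Cdc73 was detected in 11 high-score and 13 low-score libraries and differed by -1.61, Ctu2 by -5.52 in 4 against 7 libraries (unadjusted p = 0.0138, adjusted p = 0.651), Gm28437 by 0.08 and mt-Co2 by 0.05.

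The change of the difference from 12 to 90 dpi was tested in a joint fit. Of 10204 genes 33 passed (0.323%), 3 upward and 30 downward, and 786 of the 970 genes with an unadjusted p under 0.05 went downward, beside a median change of -0.75 over all genes. Of the genes called at 12 dpi, Cdc73 changed by -10.16 ± 1.96 (SE, adjusted p = 0.0118), Ctu2 by -12.72 ± 2.61 (adjusted p = 0.0156) and Gm28437 by 1.71 ± 0.42 (adjusted p = 0.0419). The changes of Nkiras2, Nr4a3, Slc4a1ap and mt-Co2 did not pass. The count was 0 without set male 2 and 0 without libraries under 5000 genes detected.

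In pool-and-split libraries the same rule called no gene with edgeR at 12 dpi among 8712 tested (0%) or at 90 dpi among 8574 (0%). At an unadjusted p under 0.05 there were 640 and 532 genes, and DESeq2 was not run on these. The groups hold 10 libraries each rather than 14. Nr4a3 differed by -8.05 there at 12 dpi, opposite to the 10-cell libraries (unadjusted p = 0.00668), Nkiras2 by 3.86 (unadjusted p = 0.0858) and Cdc73 by -2.60. In bulk RNA of tumours against wild-type OPCs at 150 dpi (7 and 6 animals), where 46.2% of 16346 genes were called, Nkiras2 was higher by 0.98 (adjusted p = 0.0161) and Nr4a3 lower, at -2.45 (adjusted p = 0.00184). The other 5 genes were not called in bulk. Under the alternatives run at 12 dpi the 7 genes kept their sign throughout, and the call held in 16 of 20 for Gm28437, 7 of 20 for mt-Co2, 8 of 19 for Nkiras2 and 9 of 19 for each of Cdc73, Ctu2, Nr4a3 and Slc4a1ap.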

How the data were processed

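The deposited table holds expected counts per gene from RSEM, with Bowtie2 and build GRCm38, per the submitters' processing notes, which state no versions. It has 34623 genes and 92 ERCC spike-ins in 240 libraries. The authors scaled nothing per the values, and expected counts were rounded to whole numbers here. Totals ran from 1.64 to 6.49 in units of 1000000 counts in 10-cell libraries. Log2 differences are from edgeR 4.0.16 (R 4.3.3), quasi-likelihood test, TMM scaling, set as a block, and genes with a count of at least 10 in 14 of 56 libraries (10 of 40 pool-and-split). A gene was called where its p, adjusted by Benjamini-Hochberg over the genes tested, was under 0.05. Group means of library measures were compared by permuting libraries within sets (numpy 2.4.6). DESeq2 1.42.0 and other scalings, filters and group sizes were alternatives, 2 of them, which leave out libraries, chosen after seeing the data. Copies were compared with blastn 2.17.0. Sequences are RefSeq's, build GRCm38.p6. Libraries, members and lists were chosen with earlier results of these data known. Genes were named by a rule: called genes with mean CPM at or above the median of tested genes (the 10 largest rises and falls), and of each of 20 lists up to 4 rises and 2 falls. A fold against 0 counts uses a floor of 3 counts over the group, and intervals cover counting error only.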

Additional observations from a re-analysis of the deposited data

Results flagged for a closer look

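Several results differed between 12 and 90 dpi in a test of that difference. In the joint edgeR fit, 33 genes had a high-score minus low-score difference that changed between the times. Among named genes, the log2 difference of Cdc73 changed by -10.16 and that of Ctu2 by -12.72. The mitochondrial copy Gm28437 changed by 1.712 the other way. The microglial gene Tmem119 changed by 13.92 ± 3.14 (SE, adjusted p = 0.0353). It was detected in 3 high-score and 5 low-score libraries at 12 dpi, too few for a test at that time alone, and in 10 and 4 at 90 dpi. The difference in genes detected was larger at 12 than at 90 dpi by 1499 genes (permutation p = 0.0435, two-sided, 100000 resamples, a test added after seeing the data). This p measures the distance from the mean permuted value, which need not be 0 because sets hold unequal numbers of high-score and low-score libraries. It does not test 1499 genes against 0. Without set male 2 the differences were 1994 genes at 12 dpi and 1661 at 90 dpi, and without female 1 they were 2159 and 1668. Without female 2 they were 3111 and 36, and without male 1 they were 3068 and 592. The test of the change was not repeated without a set.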

How the results depend on the processing

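At 12 dpi the 7 calls became 503 with DESeq2, 490 with no filter on low counts, 37 without high-score libraries resting on 1 gene (7 of 7 shared), 35 with the ERCC ratio as a covariate, 28 with 28 against 28 libraries (2 shared), 20 when scaled by total counts and 11 with RLE size factors. They became 3 with 10 against 10, 1 each with genes detected as a covariate (0 shared), a stricter filter, the continuous score (0 shared), thinned counts for the score or counts summed per set, and 0 without libraries under 5000 genes detected. Leaving out a set gave 0 (male 2) to 10. At 90 dpi the 0 calls became 295 with DESeq2 and 3 with no filter, and 0 to 1 without a set. The 33 changes between times became 747 with DESeq2, 238 with no filter and 50 with 28 against 28. They became 3 with genes detected as a covariate, with 10 against 10 or without libraries resting on 1 gene, 1 with the stricter filter, 0 with the thinned score or without libraries under 5000 genes detected, and 0 (male 2) to 41 without a set. In pool-and-split libraries no filter gave 26 and 6 calls.

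Replicate numbers in the labels pair no libraries. Without the set as a replicate block, 26 genes were called at 12 dpi, 2 at 90 dpi and 178 changed between times.

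The 12 dpi difference in genes detected was 3176 with 10 against 10 (adjusted p = 0.05376), 1967 with the thinned score (adjusted p = 0.05406), and 1994 to 3111 without a set. The log2 total count difference at 12 dpi ran from -0.1263 (without male 2) to 0.1785 without a set. Blm at 12 dpi reversed to -1.40 with the continuous score and to -0.0096 with 28 against 28, and C1qb at 90 dpi to -0.1585 with 28 against 28. Of 889 single-gene values under alternatives, 773 kept direction and side. The causes were not tested. Sparse detection limits every level: most score and mitosis genes are at 0 in most libraries.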
